A study of Mus musculus with 18 samples.

Results

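The chromatoid body and piRNA pathway genes described here are 10 genes listed by name, Ddx4, Piwil1, Piwil2, Tdrd1, Tdrd5, Tdrd6, Tdrd7, Tdrd9, Mael and Mov10l1, and each was found as a single row among the 54232 genes counted in RNA from round spermatids (RS). RS are haploid male germ cells that have finished meiosis and have not yet elongated. They were isolated from the testes of mice aged 75 to 85 days, of 3 genotypes with 6 libraries each, and the labels do not say whether each library came from its own animal, so the p-values measure the spread between libraries. WT mice carry the normal gene for GRTH, the testis RNA helicase encoded by Ddx25. GRTH-KO (KO) mice lack the protein, and GRTH-KI (KI) mice, as the study describes them, carry a human GRTH gene with a missense mutation that removes the phosphorylated form of the protein.

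The chromatoid body is a perinuclear granule of RS, without a membrane, in which RNA and RNA-binding proteins collect, and GRTH is one of its components. PIWI-interacting RNAs (piRNAs) are short RNAs bound by proteins of the PIWI family. In male germ cells they silence transposons and, at the pachytene stage and in RS, are made from long precursor transcripts. Tudor-domain proteins bind methylated arginines of the PIWI proteins and hold them in the granule, and RNA helicases act on the RNA at several steps.

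All 10 genes were well above the filter on low counts, and all were among the 21058 genes tested. Levels are given as CPM, the usual scaling of a gene's count to the size of its library, with edgeR's TMM factors. Levels of different genes are compared per length, as FPKM, which is this CPM per kilobase of exon. Assigned counts totalled 18766971 in the shallowest library and 26776555 in the deepest. Ddx25 lay between 538.2 and 607.3 CPM in WT, between 47.7 and 90.9 CPM in KO, and at 0.519 CPM or less in 5 of 6 KI libraries. Reads were aligned to the mouse genome, so these counts may not measure RNA of the human gene that KI mice carry. The library labelled KI 4 had 56.9 CPM of Ddx25, within the KO range, and lay closer in its counts to KO 2 than any other pair of libraries lay to each other, so it is called by its label and results are also given without it. Another 6 pairs of libraries of 1 genotype (WT 1 and 2, WT 3 and 4, WT 5 and 6, KO 4 and 5, KI 1 and 2, KI 3 and 5) lay closer to each other than the rest, and results are also given with each pair summed to 1 library and the library labelled KI 4 left out, which gives 3 WT, 5 KO and 3 KI libraries.

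The labelled cell type was checked against marker genes. The summed level of 12 spermatocyte markers overlapped between the genotypes (1150 to 1421 CPM in WT, 1154 to 1461 in KO and 1167 to 1460 in KI), while 4 of the 12 were higher and 3 lower in KO, and 3 higher and 2 lower in KI. That of 10 RS markers was 1881 to 2673 CPM in WT, 853.3 to 1619 in KO and 844.8 to 1205 in KI, with Gsg1 and Crem at the highest levels. Of these 10, 4 were lower and 6 not called in KO, with a median log2 fold change of -0.19, and 5 were lower and 5 not called in KI, with a median of -0.55. Most of the fall of the sum was in Gsg1, whose WT mean of 1267 CPM stood against 295.5 CPM in KO and 268.4 CPM in KI. Of 10 elongating spermatid markers, led by Prm2 and Akap4, all 10 were lower in KO and in KI. They were taken partly from genes that the study itself names as lower in these samples. Their sums were 15744 to 21727 CPM in WT, 1840 to 4670 in KO and 2454 to 3767 in KI. The study describes mRNA of Prm2 and Tnp2 as already made and stored in RS for later translation. The level of such markers thus does not measure elongating cells alone. Sums of 10 spermatogonium markers (Dazl and Uchl1 the highest), 10 Sertoli markers (Clu and Amhr2), 7 Leydig markers (Star and Cyp17a1) and 8 macrophage and endothelial markers (Vwf and Adgre1) stayed at or under 132.5, 26.6, 69.3 and 35.4 CPM, and several of them differed between the genotypes. The Leydig sum was 9.96 to 20.6 CPM in WT, 30.7 to 54.6 in KO and 13.6 to 69.3 in KI, and all 7 markers were higher in KO and in KI. The macrophage and endothelial sum was 16.5 to 20.3 CPM in WT, 21.7 to 34.1 in KO and 25.7 to 35.4 in KI, with 2 of the 8 markers higher in each and 0 lower. Much of the rise in KO was in Vwf, from a WT mean of 10.8 CPM to 19.6 CPM. Pecam1 and Cdh5 had log2 fold changes of -0.28 and -0.18 in KO, not called, and the other markers lay above 0. The spermatogonium sum was 61.0 to 77.0 CPM in WT, 76.4 to 126.3 in KO and 53.9 to 132.5 in KI, with 4 of the 9 tested markers higher in KO and 2 in KI and 0 lower. The Sertoli sum was 15.5 to 26.6 CPM in WT, 11.9 to 21.3 in KO and 12.1 to 22.6 in KI, with 2 of the 9 tested markers lower in KO and 3 in KI and 0 higher. Over all genes tested 16.4% were called higher and 13.5% lower in KO, and 16.1% and 15.4% in KI. The counts of markers were not tested against these shares, which the smaller counts lie near. No marker was at the floor of 3 counts in every library. The part of these shifts in the results below was not tested, and in bulk RNA fewer cells of a type and less RNA per cell cannot be told apart.

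Sequence around the starts of the genes is shown first because MYBL1 (A-MYB), the pachytene activator of piRNA precursors, is known to switch on several of these genes, and its own mRNA is among those measured here. RefSeq windows of 250 bases before to 50 after the start (GRCm38.p6) were matched by symbol for 8 of the 10 genes, in 12 windows since Tdrd1 and Tdrd7 have 3 starts each. The 4 shown are those of a helicase, a PIWI protein, a Tudor protein and Mael, that is, a gene of each role, and capitals mark each place where the MYB core AACNG occurs on either strand:
Ddx4: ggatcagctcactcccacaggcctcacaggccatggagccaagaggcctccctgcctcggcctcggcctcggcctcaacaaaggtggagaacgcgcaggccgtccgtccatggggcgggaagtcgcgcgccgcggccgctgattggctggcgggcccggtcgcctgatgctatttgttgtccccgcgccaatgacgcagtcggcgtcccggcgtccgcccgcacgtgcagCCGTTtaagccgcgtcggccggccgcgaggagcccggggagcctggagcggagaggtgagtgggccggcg
Piwil1: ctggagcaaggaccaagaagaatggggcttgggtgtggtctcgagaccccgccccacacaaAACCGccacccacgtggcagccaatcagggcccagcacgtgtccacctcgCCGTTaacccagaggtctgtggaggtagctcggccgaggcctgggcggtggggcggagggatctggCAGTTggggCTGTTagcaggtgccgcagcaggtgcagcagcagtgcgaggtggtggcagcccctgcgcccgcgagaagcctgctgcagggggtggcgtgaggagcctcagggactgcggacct
Tdrd5: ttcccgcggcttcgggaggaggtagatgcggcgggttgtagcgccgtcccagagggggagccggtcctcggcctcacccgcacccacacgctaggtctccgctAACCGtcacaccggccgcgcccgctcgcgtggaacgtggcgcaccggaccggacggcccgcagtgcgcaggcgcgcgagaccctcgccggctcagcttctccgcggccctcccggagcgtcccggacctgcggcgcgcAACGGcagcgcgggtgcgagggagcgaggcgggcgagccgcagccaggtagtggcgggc
Mael: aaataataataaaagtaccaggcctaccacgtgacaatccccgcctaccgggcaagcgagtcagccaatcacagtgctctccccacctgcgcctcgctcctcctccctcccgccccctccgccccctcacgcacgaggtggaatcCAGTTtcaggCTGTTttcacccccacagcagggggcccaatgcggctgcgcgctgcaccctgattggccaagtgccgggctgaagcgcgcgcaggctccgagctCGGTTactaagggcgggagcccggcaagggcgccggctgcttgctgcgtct
The windows lie at chr13:112652261-112652560 (minus strand, Ddx4), chr5:128735996-128736295 (plus strand, Piwil1), chr1:156303299-156303598 (minus strand, Tdrd5) and chr1:166238695-166238994 (minus strand, Mael). The core occurred at 1 place in the Ddx4 window, at 4 places in that of Piwil1, at 2 in that of Tdrd5 and at 3 in that of Mael. All 12 windows held it at 1 to 5 places, but so did 80.3% of the 32851 windows of all genes, and 27.01% of those held it at 3 or more places. The longer form AACNGTT, which contains the core, occurred in 0 of the 12 windows and in 4.45% of all, and the cAMP response element TGACGTCA in 0 of the 12 and in 1.79% of all. These matches are letters in a window and say nothing of binding.

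In WT RS the levels per length of the 10 genes spanned from 511.5 ± 29.1 FPKM for Mael to 12.5 ± 1.62 FPKM for Tdrd5 (SD, n = 6). Mael was followed by Ddx4 at 294.0 ± 37.7, Tdrd6 at 192.0 ± 10.3, Tdrd7 at 155.6 ± 43.9 and Piwil1 at 72.4 ± 14.4 FPKM. Then came Tdrd9 at 36.7 ± 3.72, Mov10l1 at 34.0 ± 4.16, Tdrd1 at 29.1 ± 5.27 and Piwil2 at 14.9 ± 1.52 FPKM. Neighbours in this order whose WT ranges overlapped were Tdrd6 and Tdrd7, Tdrd9 and Mov10l1, Mov10l1 and Tdrd1, and Piwil2 and Tdrd5, and the other neighbours did not overlap. The mean level of Mael was above that of 99.7% of the genes tested, and that of Tdrd5 above 79.8%. Mael, Ddx4, Tdrd6 and Tdrd7 were thus above both PIWI genes.

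The first question was whether the mRNA of these 10 genes differed from WT where GRTH or its phosphorylated form was missing. Of the 10 genes, 2 were higher in KO than in WT, Piwil2 and Tdrd5, and 0 were lower, at an adjusted p under 0.1 for a change of any amount in edgeR's quasi-likelihood test. Over all genes tested, 16.4% were higher and 13.5% lower, so that the share of these genes that rose was near that of all genes. In KI the same 2 genes were higher than in WT and 0 were lower, against 16.1% and 15.4% of all genes. At an unadjusted p under 0.05, 3 of the 10 genes passed in KO and 3 in KI, against 34.2% and 35.6% of all genes in either direction. Past a change of 1 log2 unit (glmTreat), 0 of the 10 passed in either genotype, where 1.73% of all genes did in KO and 1.95% in KI. The median log2 fold change of the 10 genes was 0.07 in KO and 0.22 in KI, beside 0.03 and 0.05 over all genes tested. Both comparisons share the WT libraries. Scaling by library totals alone raised the median of all genes to 0.15 in KO and 0.20 in KI, with 5214 genes higher and 2151 lower in KO in place of 3461 and 2836, and 5628 higher and 2485 lower in KI in place of 3397 and 3247. Of the 10 genes, 3 were then higher in KO and 5 in KI, against 24.8% and 26.7% of all genes. With the close libraries summed, 1 of the 10 was higher in KO and 0 were in KI, against 7.94% and 5.32% of all genes. Without the library labelled KI 4, 2 were higher in KO and 3 in KI, the added gene being Tdrd6, against 16.8% and 14.5% of all genes.

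**Figure D1:**
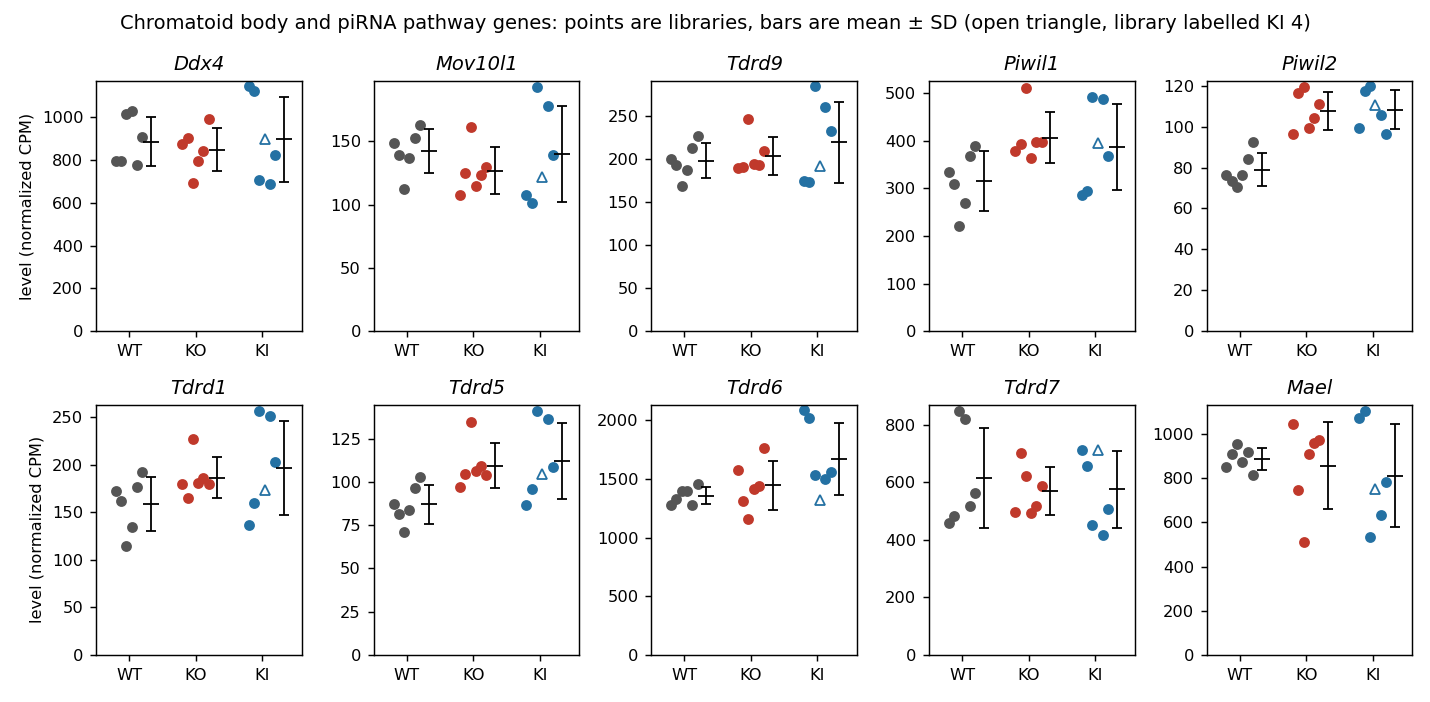
Level of each of the 10 genes in normalized CPM (vertical axis, from 0) in the 6 libraries of WT, KO and KI; points are libraries, the open triangle is the library labelled KI 4, and bars show mean ± SD. Of the 10 genes, Piwil2 is the one whose WT libraries, at 70.6 to 92.3 CPM, lie apart from those of both other genotypes. Such separation was not counted over all genes. Mael is spread most widely in KI, from 532.0 to 1103 CPM.

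PIWIL1 (MIWI) and PIWIL2 (MILI) are the PIWI proteins that bind piRNAs in meiotic and haploid male germ cells, PIWIL2 appearing earlier. Piwil2 (ENSMUSG00000033644, chr14:70372477-70429383, minus strand) was at 76.3, 73.4, 70.6, 76.6, 84.4 and 92.3 CPM in WT 1 to 6. In KO it was at 96.4, 116.4, 119.4, 99.5, 104.0 and 111.2 CPM. In KI it was at 99.5, 117.5, 119.8, 110.4, 105.6 and 96.2 CPM. Every KO and KI library was thus above every WT library. How many of all genes separate in this way was not counted, here or for the genes below. The log2 fold change was 0.45 ± 0.10 (SE) in KO (edgeR adjusted p = 0.00256) and 0.45 ± 0.10 in KI (edgeR adjusted p = 0.00212), or 1.37-fold in each. The KO call held under all 28 alternatives, with adjusted p up to 0.0832 with the close libraries summed, where the KI call was lost (log2 fold change 0.47, edgeR adjusted p = 0.137).

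Piwil1 (ENSMUSG00000029423, chr5:128702524-128755474, plus strand) was at 334.7, 308.4, 221.9, 270.1, 369.3 and 389.8 CPM in WT 1 to 6. In KO it was at 378.1, 394.6, 511.4, 364.7, 397.0 and 397.2 CPM. In KI it was at 286.4, 293.7, 492.8, 395.7, 487.6 and 368.0 CPM. KO lay mostly above WT, with KO 3 far above the other 5, and KI overlapped both. Its log2 fold change was 0.37 ± 0.16 in KO (edgeR adjusted p = 0.107) and 0.30 ± 0.16 in KI (edgeR adjusted p = 0.199), so neither passed, with 95% confidence intervals of 0.03 to 0.70 and -0.04 to 0.63. The KO value passed under 8 of the 28 alternatives, among them without WT 5 (edgeR adjusted p = 0.0943), without WT 6 (0.0766), and without KI 1, 2, 3 or 5 (0.0929 to 0.0989).

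**Figure D2:**
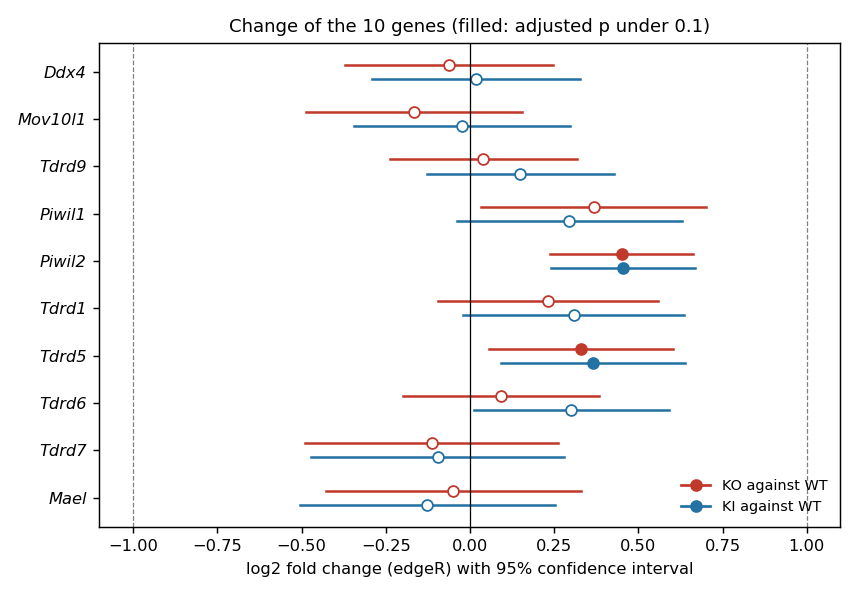
Log2 fold change of each of the 10 genes against WT (horizontal axis) with its 95% confidence interval, for KO in red and KI in blue; filled points passed an adjusted p of 0.1 for any change and dashed lines mark 1 log2 unit. Piwil2 at 0.45 and Tdrd5 at 0.33 and 0.37 are the filled points, and every interval lies within 1 log2 unit.

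TDRD1, TDRD5, TDRD6 and TDRD7 are Tudor-domain proteins. TDRD1 is a partner of PIWIL2, TDRD5 acts on pachytene piRNA precursors, and TDRD6 and TDRD7 shape the chromatoid body. Tdrd5 (ENSMUSG00000060985, chr1:156255296-156303664, minus strand) was at 87.0, 81.6, 71.1, 83.5, 96.4 and 102.7 CPM in WT 1 to 6. In KO it was at 97.0, 104.7, 134.8, 106.3, 109.2 and 104.0 CPM. In KI it was at 86.9, 95.7, 141.1, 104.3, 136.3 and 108.5 CPM. The KO range met that of WT only at its lower end, and KO 3, KI 3 and KI 5 were the highest libraries. For Tdrd5 the log2 fold change was 0.33 ± 0.13 in KO (edgeR adjusted p = 0.076) and 0.37 ± 0.13 in KI (edgeR adjusted p = 0.0457). The KO call was lost under 11 of the 28 alternatives, 7 of which left out 1 library (WT 1, 2, 3 or 4, or KO 3, 4 or 5), with adjusted p up to 0.23 among these. The KI call was lost without KI 3 (log2 fold change 0.29, edgeR adjusted p = 0.121) or KI 5 (0.30, edgeR adjusted p = 0.113), and with the close libraries summed (edgeR adjusted p = 0.278).

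Tdrd6 (ENSMUSG00000040140, chr17:43615335-43630299, minus strand) was at 1277, 1333, 1395, 1394, 1277 and 1459 CPM in WT 1 to 6, and at 1577, 1313, 1162, 1415, 1439 and 1765 CPM in KO. In KI it was at 2087, 2020, 1536, 1318, 1502 and 1560 CPM. All KI libraries other than that labelled KI 4 were above every WT library. The log2 fold change in KI was 0.30 ± 0.14 (edgeR adjusted p = 0.124), which did not pass, and without the library labelled KI 4 it was 0.36 and passed (edgeR adjusted p = 0.0727). It passed under 9 of the 28 alternatives, also without WT 3, WT 6 or KO 3 (edgeR adjusted p of 0.0735, 0.0832 and 0.0986). In KO the log2 fold change was 0.09 ± 0.14.

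Tdrd1 (ENSMUSG00000025081, chr19:56826209-56870012, plus strand) was at 114.7 to 191.7 CPM in WT (median 167.3), at 164.9 to 227.3 in KO (median 180.2) and at 136.2 to 255.8 in KI (median 188.0). The ranges overlapped, and the log2 fold changes of 0.23 ± 0.16 in KO and 0.31 ± 0.16 in KI did not pass (edgeR adjusted p = 0.329 and 0.168). The KI value passed without WT 6 (edgeR adjusted p = 0.092) or KI 1 (0.068). Tdrd7 (ENSMUSG00000035517, chr4:45965334-46034761, plus strand) was at 459.9 to 848.4 CPM in WT (median 540.7), with WT 3 and WT 4 at 848.4 and 821.7 and the other 4 at 564.6 or less. KO, at 493.0 to 701.2 CPM, and KI, at 416.4 to 713.3 CPM, lay inside or just below that range, and its log2 fold changes were -0.11 ± 0.18 and -0.10 ± 0.18.

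DDX4 (VASA) is the germ cell helicase that marks the chromatoid body, MOV10L1 binds piRNA precursors at the start of their processing, and TDRD9 joins a helicase to a Tudor domain and acts in transposon silencing. Ddx4 (ENSMUSG00000021758, chr13:112598333-112652475, minus strand) was at 795.1, 796.0, 1013, 1028, 778.4 and 907.6 CPM in WT 1 to 6. In KO it was at 873.4, 901.4, 690.2, 794.4, 840.2 and 991.9 CPM, and in KI at 1146, 1122, 706.1, 899.2, 689.2 and 822.1 CPM. The 3 genotypes overlapped throughout, with KI 1 and KI 2 the highest and KO 3, KI 3 and KI 5 the lowest. The log2 fold change was -0.06 ± 0.15 in KO, with a 95% confidence interval of -0.37 to 0.25, and 0.02 ± 0.15 in KI, with an interval of -0.29 to 0.33. A loss or gain of Ddx4 mRNA within those limits remains compatible with these values. Mov10l1 (ENSMUSG00000015365, chr15:88982909-89055152, plus strand) was at 112.6 to 163.2 CPM in WT, 107.5 to 160.9 in KO and 101.3 to 193.0 in KI, with log2 fold changes of -0.17 ± 0.15 and -0.02 ± 0.15. Tdrd9 (ENSMUSG00000054003, chr12:111971559-112068854, plus strand) was at 169.3 to 226.8 CPM in WT, 189.4 to 246.5 in KO and 173.1 to 285.3 in KI, with log2 fold changes of 0.04 ± 0.13 and 0.15 ± 0.13. Neither helicase passed in KO or KI.

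MAEL is an HMG-box protein of the nuage, needed for transposon silencing and for pachytene piRNAs. Mael (ENSMUSG00000040629, chr1:166201201-166238747, minus strand) was at 852.6, 909.2, 954.3, 871.1, 917.3 and 813.7 CPM in WT 1 to 6. In KO it was at 1045, 745.3, 508.9, 909.0, 957.7 and 972.4 CPM, and in KI at 1071, 1103, 532.0, 749.5, 633.1 and 784.2 CPM. The WT libraries were close together, with an SD of 50.5 CPM against 197.6 in KO and 230.8 in KI, where single libraries lay both above and below all of WT. The log2 fold changes of -0.05 ± 0.18 in KO and -0.13 ± 0.18 in KI did not pass (edgeR adjusted p = 0.893 and 0.678).

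KI and KO were then compared directly, since the KI mice keep a GRTH protein without its phosphorylated form. In KI against KO 0 of the 10 genes passed in edgeR, where 0.0997% of all genes did, and 0 passed in DESeq2, where 0.345% did. At an unadjusted p under 0.05, 0 of the 10 passed, against 4.42% of all genes. The log2 fold changes ran from -0.08 for Mael to 0.21 for Tdrd6, with a median of 0.06. For Piwil2 the difference was 0.00 ± 0.10, with a 95% confidence interval of -0.21 to 0.22, and for Tdrd5 0.04 ± 0.13, with an interval of -0.24 to 0.31. A difference between KI and KO within those intervals remains compatible with these values. All of them include the library labelled KI 4, whose Ddx25 lay within the KO range. When it was left out, edgeR called 60 rises and 51 falls among all 21257 genes, in place of 16 and 5 of 21058. Of the 10 genes 0 passed then too, with Piwil2 at -0.0024 ± 0.11 and Tdrd5 at 0.05 ± 0.14. The part of that library in the likeness of KI and KO was not tested further.

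Libraries of 1 genotype also differed among themselves, and 9 of the 10 genes could be placed in 2 groups by the sign of their correlations, a grouping chosen after the values were seen. The first holds Piwil1, Tdrd1, Tdrd5, Tdrd9 and Mov10l1, and the second Ddx4, Tdrd6, Tdrd7 and Mael. Single libraries departed from it: in WT 6 Ddx4 and Tdrd6 were above their WT means together with the first 5 genes, and in KO 3 Tdrd7 was above its KO mean. All 10 pairs within the first 5 genes had a positive Pearson r of log2 CPM (0.58 to 0.94, and 0.90 to 0.98 after the mean of each genotype was subtracted). The 6 pairs within the second group ran lower, from 0.10 to 0.73 (0.18 to 0.77 after subtraction), and 4 of the 6 had an adjusted p under 0.05. All 20 pairs between these 5 and the other 4 had a negative r (-0.83 to -0.09, and -0.87 to -0.48 after subtraction). The p-values are two-sided, from 100000 permutations, were adjusted over the 45 pairs of the 10 genes and take the close libraries as independent. Of the 45 pairs, 32 (71.1%) had an r of at least 0.50 in size, the smallest that passed here. Among all pairs of the 8518 genes with a mean of at least 10 CPM, 36.9% did, so such correlations were common among other genes too. The difference between these shares was not tested, and pairs that share a gene are not independent.

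Piwil1 and Tdrd5 were the pair with the highest r, 0.94, with Spearman's rho 0.86 (permutation p = 1e-05, the smallest these permutations can give, and 2e-05; adjusted 9e-05 for r). Without the 2 libraries farthest from the median of Piwil1, r was 0.92, and it was 0.95 within WT, 0.92 within KO and 0.96 within KI. Piwil1 and Mael had an r of -0.72 and a rho of -0.56 (permutation p = 0.00079 and 0.0174; adjusted 0.00187 for r), with r -0.84 without the 2 farthest libraries and -0.65, -0.89 and -0.98 within WT, KO and KI. For Tdrd9 and Mael r was -0.83 and rho -0.67 (permutation p = 2e-05 and 0.00328; adjusted 0.000129 for r), and r was -0.70 without the 2 farthest libraries. Over the 11 libraries left after the close ones were summed, r was 0.94 for Piwil1 and Tdrd5, -0.77 for Piwil1 and Mael, and -0.82 for Tdrd9 and Mael. Piwil2 stood between the groups, with r after subtraction of the genotype means from -0.46 to 0.60 with the other 9 genes. Not every pair kept its direction within each genotype: Piwil1 and Tdrd7 had r of -0.77 in WT and -0.80 in KI but 0.48 in KO. Within KO Tdrd7 also had r of 0.35, 0.35 and 0.59 with Tdrd5, Tdrd9 and Mov10l1, and -0.0004 with Tdrd1. With its own group it had -0.62 (Mael), -0.41 (Tdrd6) and 0.07 (Ddx4), while pairs of Ddx4, Tdrd6 and Mael stayed at 0.72 to 0.86. Within WT Mael had -0.32 with Tdrd6, 0.06 with Ddx4 and 0.32 with Tdrd7. The second group thus did not hold together in every genotype.

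**Figure D3:**
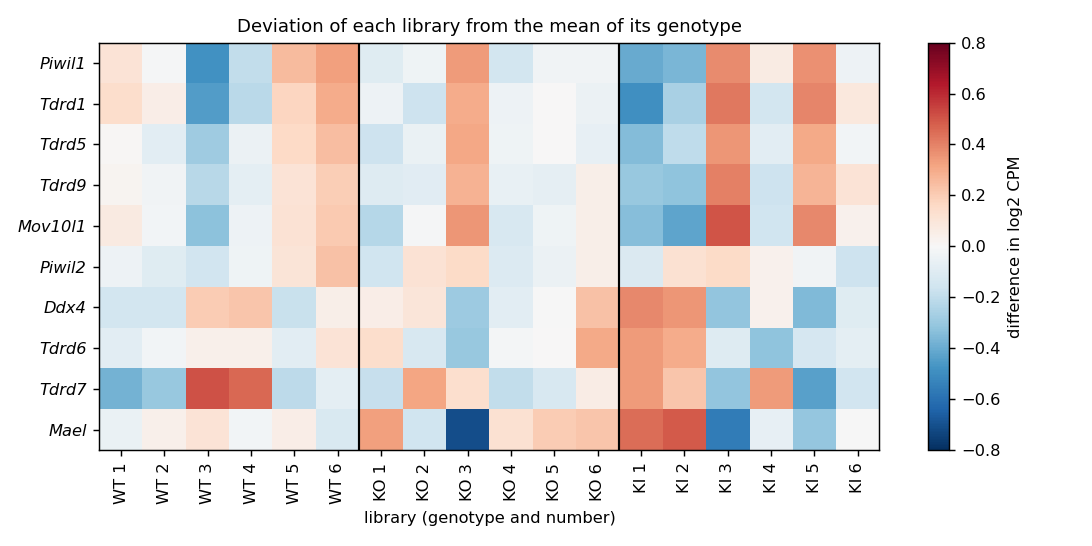
Deviation of each library (columns, 6 per genotype) from the mean of its genotype for each of the 10 genes (rows), as a difference in log2 CPM; red is above the mean and blue below. In KO 3, KI 3 and KI 5 the upper 5 genes are red and Mael and Ddx4 blue, and in KI 1 and KI 2 the reverse.

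The ratio of the Piwil1 level to the Mael level in CPM shows how far apart the libraries were. It was 0.232 to 0.479 in WT, and 1.005, 0.926 and 0.770 in KO 3, KI 3 and KI 5. It was 0.268 and 0.266 in KI 1 and KI 2, and 0.362 to 0.529 in the other libraries of KO and KI. Counts on mitochondrial genes made up 23.6% of the total in KO 3, 17.2% in KI 3 and 17.5% in KI 5, and 9.77% and 8.58% in KI 1 and KI 2, beside 9.93% to 13.5% in WT. KO 2 and the library labelled KI 4, however, had 19.3% and 19.4% with ratios of 0.529 and 0.528. The part of this in the pattern was not tested. Without KO 3, KI 3, KI 5 and the library labelled KI 4, a choice made after seeing the data, 2 of the 10 genes were higher in KO, against 16.9% of all genes, and in KI 2 were, against 16.3%, Piwil2 and Tdrd6 (log2 fold change 0.51, edgeR adjusted p = 0.0121), while Tdrd5 was at 0.19 (edgeR adjusted p = 0.295).

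The genes most like Ddx4 over the 18 libraries, among 8517 others with a mean of at least 10 CPM, were Ik (r = 0.97), 1700001J11Rik (r = 0.96) and Iqub (r = 0.96). Those most like Piwil1 were Mgll (r = 0.97), Naa40 (r = 0.96) and Kctd7 (r = 0.95). These are descriptions over the same libraries, which share depth and the close pairs described above.

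The other genes of the pathway were taken from lists of 18 piRNA pathway and 14 chromatoid body genes. Of the piRNA pathway genes 17 were tested, and Piwil4, the PIWI protein of fetal germ cells, did not pass the filter (9 counts or fewer in every library). In KO 5 were higher and 1 was lower, with a median log2 fold change of 0.08. In KI 4 were higher and 0 were lower, with a median of 0.14. Over all genes 16.4% were higher and 13.5% lower in KO, against 16.1% and 15.4% in KI.

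Mybl1, the activator of pachytene piRNA precursors named above, was at 72.2, 66.5, 94.3, 103.5, 91.7 and 113.1 CPM in WT, at 111.9 to 152.3 CPM in KO and at 124.9 to 154.8 CPM in KI. All KI libraries were above all WT libraries, and of KO only KO 1, at 111.9 CPM, was below the highest WT library. The log2 fold change was 0.53 ± 0.13 in KO (edgeR adjusted p = 0.00452) and 0.64 ± 0.13 in KI (edgeR adjusted p = 0.000826), and both calls held under all 28 alternatives. Morc1, an ATPase of germline transposon silencing, rose by 0.55 ± 0.18 in KO and by 0.54 ± 0.18 in KI on the log2 scale, from a WT mean of 6.38 CPM (edgeR adjusted p = 0.0252 and 0.028). Without KO 3, KI 3, KI 5 and the library labelled KI 4 the KI value of Morc1 was 0.20 (edgeR adjusted p = 0.371).

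Pld6, which encodes a mitochondrial protein thought to cut piRNA precursors, rose by 0.41 ± 0.12 in KO and by 0.31 ± 0.12 in KI (edgeR adjusted p = 0.0154 and 0.0637). The KI call of Pld6 was lost without WT 1, WT 2, KI 2 or KI 3 (edgeR adjusted p up to 0.152). Spocd1, which links PIWI proteins to DNA methylation, rose by 0.79 ± 0.17 in KI (edgeR adjusted p = 0.00158), from a WT mean of 10.3 to 17.9 CPM, with no overlap of the libraries and under all 28 alternatives. Its KO value was 0.41 ± 0.17 (edgeR adjusted p = 0.0966), a call lost under 17 of the 28 alternatives. Fkbp6, a co-chaperone of the piRNA pathway, made the fifth higher gene in KO (0.34 ± 0.13, edgeR adjusted p = 0.0637). Fkbp6, and the KO value of Spocd1 and the KI value of Pld6, fell outside the naming rule and were added after their values were seen. Pnldc1, the exonuclease that trims piRNA ends, was the lower gene in KO, with a log2 fold change of -0.33 ± 0.14 (edgeR adjusted p = 0.0825), from 6.84 to 5.43 CPM, a call lost under 12 of the 28 alternatives.

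**Figure D4:**
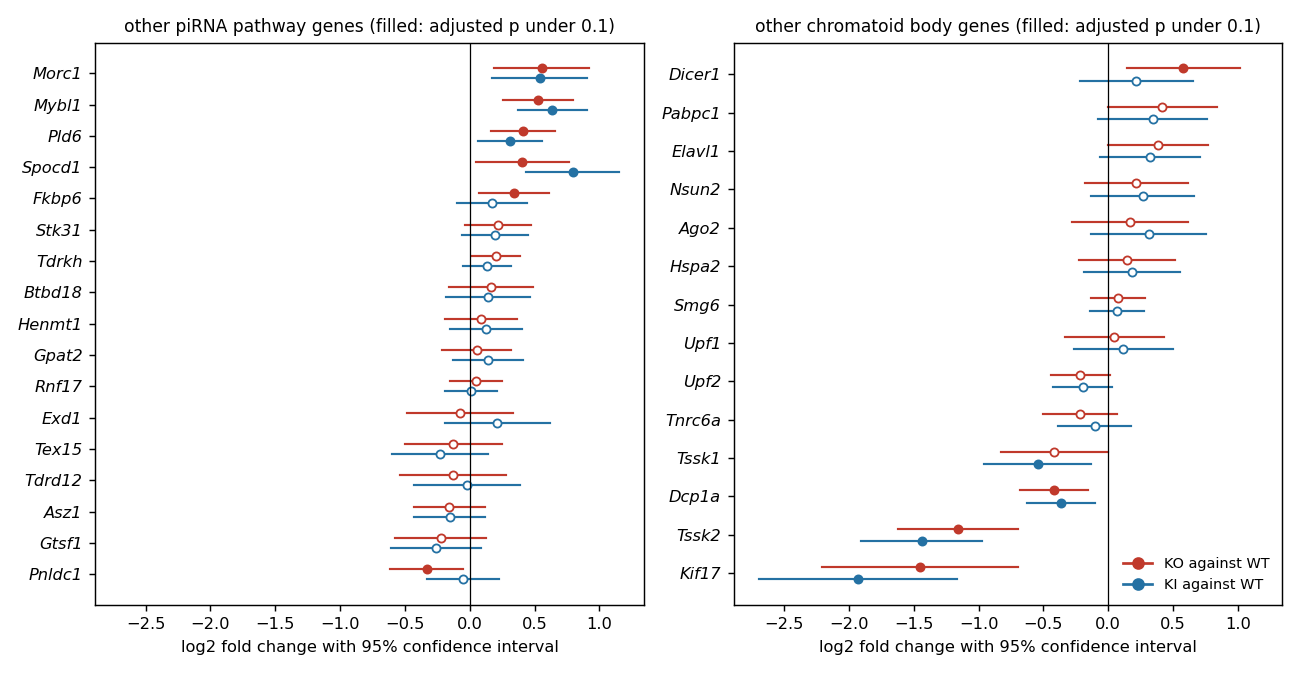
Log2 fold change against WT with its 95% confidence interval for the 17 tested genes of the other piRNA pathway list (left) and the 14 of the other chromatoid body list (right), KO in red and KI in blue, filled where the adjusted p for any change was under 0.1. Mybl1 and Morc1 lie to the right of 0 in both genotypes, and the points of Kif17 and Tssk2 lie beyond -1 in both. Of their intervals, only that of Kif17 in KI (-2.70 to -1.16) lies wholly beyond -1. Neither gene passed the test past 1 log2 unit.

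Of the 14 chromatoid body genes, 1 was higher and 3 were lower in KO, and 0 were higher and 4 were lower in KI, with medians of 0.06 and 0.09. Over all genes 16.4% were higher and 13.5% lower in KO, and 16.1% and 15.4% in KI. Kif17, a kinesin found in the chromatoid body, was at 446.4, 503.4, 364.2, 306.2, 337.4 and 271.4 CPM in WT. It was at 330.3, 60.0, 31.5, 140.0, 147.2 and 105.3 CPM in KO and at 58.8 to 124.7 CPM in KI. KO 1 was the only library of KO or KI within the WT range. On the log2 scale the change was -1.45 ± 0.36 in KO (edgeR adjusted p = 0.00532) and -1.93 ± 0.37 in KI (edgeR adjusted p = 0.000461).

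Tssk2, a testis kinase of late spermatids, was at 192.2 to 308.5 CPM in WT, 43.4 to 166.1 in KO and 64.8 to 105.2 in KI, without overlap. Its log2 fold change was -1.16 ± 0.22 in KO and -1.44 ± 0.22 in KI (edgeR adjusted p = 0.000531 and 5.04e-05). Both calls for Kif17 and for Tssk2 held under all 28 alternatives, and neither gene passed beyond 1 log2 unit (glmTreat adjusted p of 1 in KO for both, and of 0.32 and 0.863 in KI). The elongating spermatid markers fell in the same libraries, and their part was not tested.

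Dcp1a, a decapping factor, had log2 fold changes of -0.42 ± 0.13 in KO and -0.37 ± 0.13 in KI (edgeR adjusted p = 0.0188 and 0.0364), the KI value lying outside the naming rule and lost without WT 3 or WT 6 (edgeR adjusted p = 0.167 and 0.126). Tssk1, a kinase close to Tssk2, had a log2 fold change of -0.55 ± 0.20 in KI (edgeR adjusted p = 0.0497), a call lost without WT 2 or KI 3 (edgeR adjusted p = 0.112 and 0.107). Its KO value was -0.42 ± 0.20 and did not pass (edgeR adjusted p = 0.144). Dicer1, the nuclease that makes microRNAs, was the gene that rose in KO, by 0.58 ± 0.21 (edgeR adjusted p = 0.0495). In KI the value of Dicer1 was 0.22 ± 0.21 and did not pass (edgeR adjusted p = 0.508). Its KO libraries were at 11.7 to 18.7 CPM against 7.10 to 10.8 in WT, and the call was lost without WT 2, WT 5 or KO 2 (edgeR adjusted p = 0.105, 0.107 and 0.14). With the close libraries summed, the calls of Mybl1, Kif17 and Tssk2 in both genotypes, Spocd1 in KI and Dicer1 in KO were kept, and those of Morc1, Pld6 and Dcp1a in both, of Spocd1, Fkbp6 and Pnldc1 in KO and of Tssk1 in KI were lost. In KI against KO 0 genes of either list passed (edgeR).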

How the data were processed

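Strand-specific libraries were made, without polyA selection, from total RNA of RS of WT, KO and KI mice, 6 per genotype. Per the file headers and the labels, the authors used cutadapt 3.4 for trimming, STAR 2.7.8a for alignment to GRCm38 and featureCounts (Subread 2.0.1) for counting read pairs by strand against GENCODE M18, duplicates included, and deposited raw counts. The labels gave each library's genotype, and every column belonged to a library of the series. Gene positions and exon lengths are those of GRCm38.

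Counts were filtered with edgeR 4.0.16 (filterByExpr), scaled with TMM factors and fitted in R 4.3.3 with 1 quasi-likelihood model of genotype over the 18 libraries. Changes of any amount were tested with glmQLFTest and changes past 1 log2 unit with glmTreat, with Benjamini-Hochberg adjustment over all 21058 genes at an adjusted p under 0.1. DESeq2 1.42.0 was run as an alternative. FPKM divides the normalized CPM by the exon length in kilobases. On simulated counts of 20710 genes for KO against WT, 50 genes were changed at each size. The test recovered 8 changes of 0.5 log2 units, 42 of 1, 49 of 2 and 50 of 3, with 12 false calls. In the real counts far more genes passed, 3461 higher and 2836 lower in KO, which makes the adjustment less strict. The recovery at 0.5 log2 units thus does not carry over to the 10 genes. Counting error is small at these depths, since the lowest count of any of the 10 genes in a library was 1329. Correlations used log2 CPM with a prior count of 2. Figures were drawn with matplotlib 3.10.9.

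Named were the 10 genes, Ddx25, of the 2 other lists the up to 3 largest rises and 3 largest falls among the genes that passed and any gene past 1 log2 unit, of each marker list the 2 highest genes and those at the floor, and the 3 genes most like Ddx4 and Piwil1. The genes and lists were chosen with earlier results of these data known. Closeness of a pair of libraries was measured as the spread of their counts over that expected from counting alone, and pairs with a ratio under 4 were called close (the 6 pairs at 2.12 to 3.00, the next at 4.62). Features of the proteins were not analysed here.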

Additional observations from a re-analysis of the deposited data

Results flagged for a closer look

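Of 33 sets of 6 libraries (the 10 genes and Ddx25 in each genotype), 5 held a library farther from the others than Dixon's 95% critical value allows, where chance would flag about 1 in 20. In KO 3, Piwil1 was at 511.4 CPM, Tdrd1 at 227.3, Tdrd5 at 134.8 and Tdrd9 at 246.5, each the highest of the KO libraries and apart from the other 5. These 4 genes vary together across libraries, so the 4 flags are not independent. Mael in the same library was the lowest of KO at 508.9 CPM, and the mitochondrial share was the highest of the 18 libraries at 23.6%, whose part was not tested. Without KO 3 the log2 fold change of Tdrd5 in KO was 0.26 and no longer passed (edgeR adjusted p = 0.167), while that of Piwil2 kept its call. Ddx25 in the library labelled KI 4, at 56.9 CPM, was apart from the other KI libraries at 0.519 CPM or less.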

How the results depend on the processing

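The number of the 10 genes called higher in KO was 1, in place of 2, with DESeq2's size factors, where 3142 of all 21058 genes were. It was also 1 with no filter on low counts (2749 of 43982 genes), at an adjusted p under 0.05 (2681 of 21058) and with close libraries summed. When each library was left out in turn it ranged from 1 to 3. All genes higher then ranged from 2908 of 21287 without KO 2 to 3581 of 21257 without the library labelled KI 4. In KI it was 5 with library totals alone, against 26.7% of all genes, and 0 with close libraries summed. Over the left-out libraries it ranged from 1 to 5. It was 5 without WT 6, where 3781 of 21288 genes were higher, and 1 without KI 3 (3271 of 21241 genes) or KI 5 (3277 of 21245). The causes were not tested, although fewer libraries enter the fit where they are summed or left out. Over the same alternatives, 0 of the 10 genes were called lower in KO or KI, 0 passed 1 log2 unit, and 0 differed between KI and KO. With close libraries summed, 1905 of the 23982 genes then tested were higher and 1827 lower in KO, and 1275 and 1647 in KI.

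The deviations of libraries with the same replicate number in the labels correlated above 0.1 in 7 of 18 pairs (-0.441 to 0.481). Libraries with different numbers were not compared in this way, so whether the numbers pair the libraries cannot be told. With the replicate number as a block, 2 of the 10 genes were higher in KO and 2 in KI, as without it. Of all 21058 genes 3360 and 3197 were. The median log2 fold change of the 10 genes was 0.06 and 0.20.

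Of 1396 single-gene log2 fold changes recomputed, 57 changed sign, and 0 of these passed the test. With library totals alone, Ddx4, Tdrd7 and Mael in KO came to 0.056, 0.011 and 0.068, and Tdrd7, Mael and Mov10l1 in KI to 0.046, 0.011 and 0.13. Mov10l1 in KI was 0 with no filter, 0.0295 with only the 2 genotypes and 0.048 with close libraries summed, and Ddx4 in KI was -0.003 with the replicate block. With close libraries summed, KI against KO was -0.0003 for Piwil2, -0.065 for Tdrd7 and 0.0057 for Mael. Without KO 3, KI 3, KI 5 and the library labelled KI 4, Tdrd9 and Mael were at -0.033 and 0.0502 in KO, Tdrd7, Tdrd9 and Mael at 0.0515, -0.0071 and 0.18 in KI, and Tdrd1, Tdrd5, Mael and Mov10l1 at -0.059, -0.063, 0.13 and -0.0106 in KI against KO. Over the left-out libraries the values ranged in KO from -0.021 to 0.086 for Tdrd9 and -0.11 to 0.0635 for Mael. In KI they ranged from -0.064 to 0.12 for Ddx4, -0.17 to 0.071 for Tdrd7 and -0.14 to 0.0615 for Mov10l1. In KI against KO they ranged from -0.15 to 0.0037 for Piwil1, -0.027 to 0.073 for Piwil2, -0.053 to 0.096 for Tdrd7, -0.0021 to 0.15 for Ddx4, -0.014 to 0.16 for Tdrd1, -0.0401 to 0.11 for Tdrd5 and -0.19 to 0.0195 for Mael.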
